A study of Mus musculus with 4 samples.

Results

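Fibroblast growth factors (FGFs) and their receptors were examined in tumors of the mouse Lewis lung carcinoma line (LLC). The 10 genes described are 6 ligands (Fgf1, Fgf2, Fgf7, Fgf10, Fgf18 and Fgf21) and the 4 receptor tyrosine kinases (Fgfr1 to Fgfr4), out of 47729 genes in the deposited table. They were chosen by family name, with their levels and their differences in these samples already known, so their values and adjusted p-values are a description of the family and no independent test of it. Cells transfected with a pEFIN plasmid for bioactive murine chemerin (LLC-Chem), or cells labelled wild type (LLC), were grafted under the skin of the back of C57BL/6 mice, the strain from which the line derives. Tumors were taken on day 5, and RNA of 3 tumors was combined in each pool, with 2 pools per group. The LLC-Chem cells went through drug selection and individual clones were collected, so clone and chemerin cannot be told apart. The study also describes cells carrying the empty vector, and the labels do not place such cells in these pools.

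FGFs are secreted proteins that bind a receptor together with heparan sulfate on the cell surface. Binding brings receptors together and starts signaling through the adaptor FRS2, the RAS-MAPK cascade and phospholipase C gamma. The pathway limits itself, since it induces its own inhibitors, among them the Sprouty proteins and MAPK phosphatases. In tumors, FGF2 is best known as a growth factor for endothelial cells, while FGF7 and FGF10 are made by mesenchymal cells and act mainly on the IIIb splice form of FGFR2, which is typical of epithelia.

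RNA levels are given as RPM, reads per 1000000 reads counted on genes. Library totals, worked out from the step between RPM values, ran from 28470000 to 33990000 reads, and 3 reads, the detection floor used here, correspond to 0.0883 to 0.105 RPM. LLC-Chem was set against LLC with two-sided limma tests on log2(RPM + 0.5) for the 13694 genes averaging 1 RPM or more, and p-values were adjusted over these by Benjamini-Hochberg. A gene is called where the adjusted p is under 0.05, and fold changes of weak genes are understated on this scale. The pools hold different tumors, and with 2 pools against 2 the smallest p an exact permutation test on any 1 value can give is 0.33. With any pool left out, limma called 0 genes in either direction, against 998 to 2359 higher and 1580 to 2823 lower at an unadjusted p under 0.05, and such a fit of 3 pools cannot show whether a call is stable. Rarres2, which encodes chemerin, stood at 102.2 and 98.2 RPM in LLC and at 105.9 and 105.8 RPM in LLC-Chem, a log2 fold change of 0.08 that was not called (95% interval -0.15 to 0.31, limma adjusted p = 0.541). Both LLC-Chem pools were slightly above both LLC pools, by 1.06 times on average, as was the case for 33.1% of all tested genes. No clear rise of chemerin RNA was thus seen in the pools labelled as expressing it. The group names used throughout are those of the labels. Another gene overlaps 33.6% of the exon bases of Rarres2. Tumor cells and host cells are both of the mouse, and in such whole tumors fewer cells of a type and less RNA per cell cannot be told apart.

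Fgf10 showed the largest difference of the 10 genes, while Fgf7, the ligand closest to it in use of receptors, showed none past the threshold. The 250 bases before the start of each gene are shown so that this pair can be set side by side. They are from RefSeq on GRCm38.p6, on the plus strand, for Fgf10 at chr13:118714449-118714698 and for Fgf7 at chr2:126034408-126034657. The Fgf7 window ends at the gene start of the GENCODE annotation used for the coordinates given below, while the Fgf10 window lies inside the gene as annotated there. RefSeq windows matched 8 of the 10 genes, and Fgf1 and Fgfr1 had none. Capitals mark the only match to the motifs searched, GCGTG in the Fgf7 window.
Fgf10: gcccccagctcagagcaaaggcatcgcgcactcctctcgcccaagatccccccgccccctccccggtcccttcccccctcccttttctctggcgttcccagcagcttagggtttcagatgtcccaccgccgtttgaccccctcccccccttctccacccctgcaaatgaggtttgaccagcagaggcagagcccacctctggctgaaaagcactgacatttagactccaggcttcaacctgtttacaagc
Fgf7: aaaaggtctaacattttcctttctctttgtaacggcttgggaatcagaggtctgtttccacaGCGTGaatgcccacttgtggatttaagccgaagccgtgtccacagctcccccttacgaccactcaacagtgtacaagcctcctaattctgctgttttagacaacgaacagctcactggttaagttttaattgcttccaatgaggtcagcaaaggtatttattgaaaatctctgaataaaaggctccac
Both strands were searched for TATAAA, for the hypoxia response element cores ACGTG and GCGTG, for the ETS core CCGGAA and for the cyclic AMP response element TGACGTCA. Of 32851 windows of the same length in the table, 12.4% hold TATAAA, 16.6% ACGTG, 28.2% GCGTG, 12.03% CCGGAA and 1.55% TGACGTCA on either strand. The Fgf10 window was richer in G and C, at 61.2%, than the Fgf7 window, at 43.6%, with a median of 52.4% over all windows. The number of CG pairs was 8 in the Fgf10 window and 6 in the Fgf7 window, with a median of 6 over all windows.

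Of the 10 genes, 6 reached the limit for testing, and Fgfr2, Fgfr3, Fgfr4 and Fgf21 did not. By limma 2 of the 6 were called higher in LLC-Chem (Fgf10 and Fgfr1) and 1 was called lower (Fgf18), where 9.54% of all tested genes were called higher and 13.5% lower, or 23.0% in either direction. Of the 6 tested, the pools did not overlap between the groups in these same 3 genes. Over all tested genes both LLC-Chem pools were above both LLC pools in 33.1% and below them in 39.3%. The median log2 fold change of the 6 genes was 0.15, beside -0.04 over all tested genes.

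**Figure D1:**
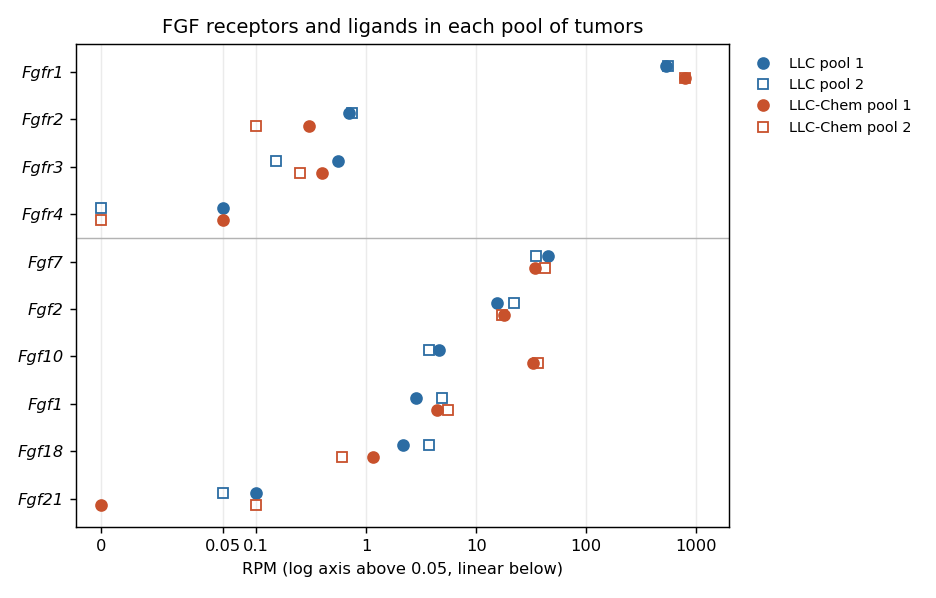
RPM of the 4 FGF receptors (above the line) and 6 ligands (below it) in each of the 4 pools, on an axis that is logarithmic above 0.05 RPM and linear below. Blue symbols are LLC pools, orange symbols LLC-Chem pools, circles pool 1 and squares pool 2, and Fgf10 shows the widest gap between the groups, from 3.70 and 4.55 RPM to 32.8 and 36.4 RPM.

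Among the receptors, Fgfr1 (chromosome 8 of GRCm38, 25513654 to 25575718, plus strand), which is widely expressed in mesenchymal cells, made up almost all of the signal. It measured 533.7 and 547.3 RPM in LLC and 783.1 and 793.4 RPM in LLC-Chem. The pools of a group lay close together, with 540.5 ± 9.64 RPM (SD, n = 2) in LLC and 788.2 ± 7.32 RPM (SD, n = 2) in LLC-Chem tumors, and both LLC-Chem pools were higher. Fgfr1 rose by 0.54 on the log2 scale, or 1.46 times (standard error 0.11, 95% interval 0.26 to 0.83, limma adjusted p = 0.0302). Over the 14 other settings of the processing the log2 fold change ran from 0.53 to 0.59 and the adjusted p from 1.78e-05 (DESeq2) to 0.261 (limma without LLC-Chem pool 2). On all 4 pools the call was lost when all genes above 0 RPM were tested (adjusted p = 0.105). Nor was Fgfr1 called by limma on all 4 pools once the pool number was added to the model (adjusted p = 0.0884).

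Fgfr2, the receptor of FGF7 and FGF10 in epithelia, was close to the lower end of what these libraries show. It measured 0.700 and 0.750 RPM in LLC, or 21 and 21 reads (recovered from the RPM to within 1 read), and 0.300 and 0.0999 RPM in LLC-Chem, or 10 and 3 reads. Both LLC-Chem pools were lower, but the gene was under the limit for testing. The pooled reads give a ratio of 0.272 of LLC-Chem to LLC, with an exact 95% interval of 0.134 to 0.516 for counting error only. The gene table does not separate the IIIb and IIIc splice forms. Fgfr3 measured 0.550 and 0.150 RPM in LLC and 0.400 and 0.250 RPM in LLC-Chem, and the groups overlapped (ratio 0.922, exact 95% interval 0.476 to 1.79, counting error only). Another gene overlaps 13.9% of the exon bases of Fgfr3. Fgfr4 had 1 read in the first pool of each group and 0 in the second, which is under the floor of 3 reads. Per kilobase of exon, Fgfr1 accounted for between 99.7% and 99.9% of the summed level of the 4 receptors in every pool, with 54.7 RPM per kilobase in LLC and 79.8 RPM per kilobase in LLC-Chem tumors. Fgfr2 stood at 0.0702 and 0.0194 RPM per kilobase and Fgfr3 at 0.0489 and 0.0454 RPM per kilobase in the same groups. The order of Fgfr2 and Fgfr3 rests on few reads, and in LLC tumors their pools overlapped.

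The most abundant ligand was Fgf7 (chromosome 2, 126034658 to 126091185, plus strand), also called keratinocyte growth factor. It measured 44.9 and 34.6 RPM in LLC and 33.9 and 42.5 RPM in LLC-Chem, so that each group had a high and a low pool and the groups overlapped. Its log2 fold change was -0.05 (standard error 0.18, 95% interval -0.50 to 0.39, limma adjusted p = 0.838). The interval leaves room for a difference of either sign, and the sign turned when LLC pool 1 (0.13) or LLC-Chem pool 1 (0.11) was left out.

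Fgf10 (chromosome 13, 118669791 to 118792115, plus strand) directs the budding of epithelia in the lung and limbs from the mesenchyme below them. It measured 4.55 and 3.70 RPM in LLC, or 140 and 105 reads, and 32.8 and 36.4 RPM in LLC-Chem, or 1116 and 1221 reads. The lowest LLC-Chem pool lay far above the highest LLC pool, and the pools within a group differed by 1.23 times in LLC and 1.11 times in LLC-Chem tumors. The mean was 4.12 ± 0.601 RPM (SD, n = 2) for LLC and 8.40 times as high, 34.6 ± 2.54 RPM (SD, n = 2), for LLC-Chem tumors. Fgf10 rose by 2.93 on the log2 scale (standard error 0.17, 95% interval 2.51 to 3.35, limma adjusted p = 0.00577). Across those settings the value ran from 2.80 to 3.12, with adjusted p from 4.66e-42 (DESeq2) to 0.148 (limma without LLC-Chem pool 2), and on all 4 pools the call was lost when all genes above 0 RPM were tested (0.105). Ordered from the most positive fold change, Fgf10 took position 12 of the 13694 genes tested, a place that describes the gene and, since it was chosen with its difference known, supports nothing further. Another gene overlaps 2.67% of its exon bases.

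**Figure D2:**
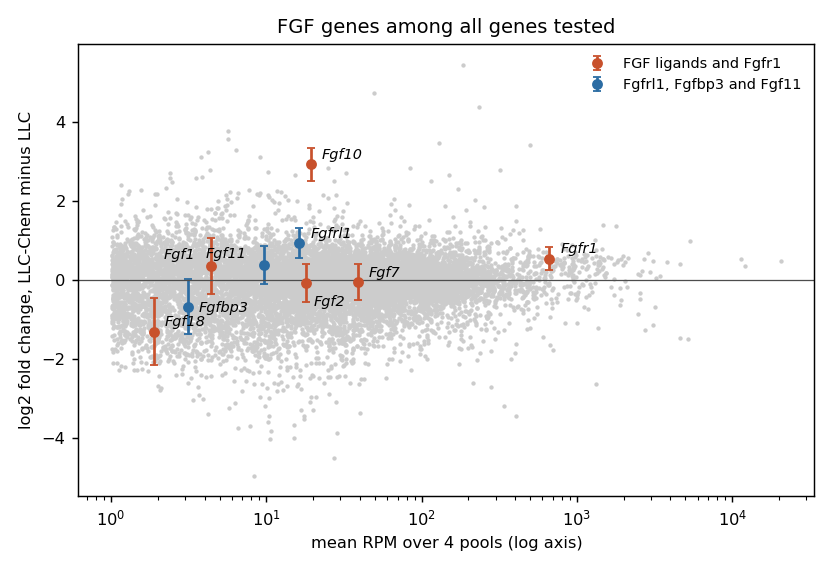
Log2 fold change between LLC-Chem and LLC tumors against the mean RPM over the 4 pools, on a logarithmic axis, for all 13694 genes tested (grey) and for 9 FGF genes with 95% intervals from limma (orange for the ligands and Fgfr1, blue for Fgfrl1, Fgfbp3 and Fgf11). Fgf10 stands at 2.93, Fgf18 at -1.31, and the intervals of Fgf1, Fgf2 and Fgf7 include 0.

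The ligands with broader receptor use, Fgf1 and Fgf2, were not called. Fgf2 (chromosome 3, 37348346 to 37410108, plus strand), which lacks a classical secretion signal, measured 15.6 and 21.8 RPM in LLC and 17.9 and 17.1 RPM in LLC-Chem. Both LLC-Chem pools lay between the LLC pools, and the log2 fold change was -0.07 (standard error 0.19, 95% interval -0.55 to 0.40, limma adjusted p = 0.79). Without LLC pool 2 it was 0.16. Other genes, among them Nudt6 on the opposite strand, overlap 13.2% of the exon bases of Fgf2, and the sources used here do not state whether counting used the strand. Fgf1, which can bind all 4 receptors, measured 2.85 and 4.85 RPM in LLC and 4.397 and 5.50 RPM in LLC-Chem. The groups overlapped, with a log2 fold change of 0.36 (standard error 0.29, 95% interval -0.36 to 1.07, limma adjusted p = 0.382). This value rests on LLC pool 1, since without it the log2 fold change was 0.02 and without LLC pool 2 it was 0.69.

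Fgf18 (chromosome 11, 33117430 to 33147400, minus strand), a ligand of the IIIc forms and of FGFR3 with roles in cartilage and lung, went the other way. It measured 2.15 and 3.70 RPM in LLC, or 66 and 105 reads, and 1.15 and 0.600 RPM in LLC-Chem, or 39 and 20 reads. Both LLC-Chem pools were lower, while the pools differed by 1.72 times within LLC and by 1.92 times within LLC-Chem tumors. The log2 fold change was -1.31 (standard error 0.34, 95% interval -2.16 to -0.45, limma adjusted p = 0.0472). The call was lost, among other settings, when all genes above 0 RPM were tested (adjusted p = 0.148), with TMM scaling (0.0547), with median-of-ratios scaling (0.0526) and with edgeR's quasi-likelihood test on recovered reads (0.0556), and it held with DESeq2 (0.0219). The lowest adjusted p of the 13 settings that tested the gene, 0.0205 by limma, came from a crossed pairing of the pools added after the data were seen. With 1 pool left out the log2 fold change ran from -1.64 to -0.98. Fgf21, an endocrine ligand made mainly by the liver, had at most 3 reads in any pool and was at or under the floor.

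Set per kilobase of exon, the 6 ligands summed to 19.6 and 18.7 RPM per kilobase in LLC and to 22.0 and 25.1 in LLC-Chem. Fgf7 held the largest share in every pool, 70.7% and 56.9% in LLC and 47.5% and 52.0% in LLC-Chem tumors. Fgf10 held 5.06% and 4.29% of the sum in LLC and 32.5% and 31.5% in LLC-Chem. In LLC tumors the levels per kilobase were 12.2 for Fgf7, then 2.76 for Fgf2 and 2.46 for Fgf18, whose pools overlapped, and 0.896 for Fgf10 and 0.704 for Fgf1, whose pools overlapped as well. In LLC-Chem tumors Fgf7 (11.7) was followed by Fgf10 (7.53), Fgf2 (2.58), Fgf1 (0.906) and Fgf18 (0.737), the last pair with overlapping pools. These shares describe RNA and were not tested.

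**Figure D3:**
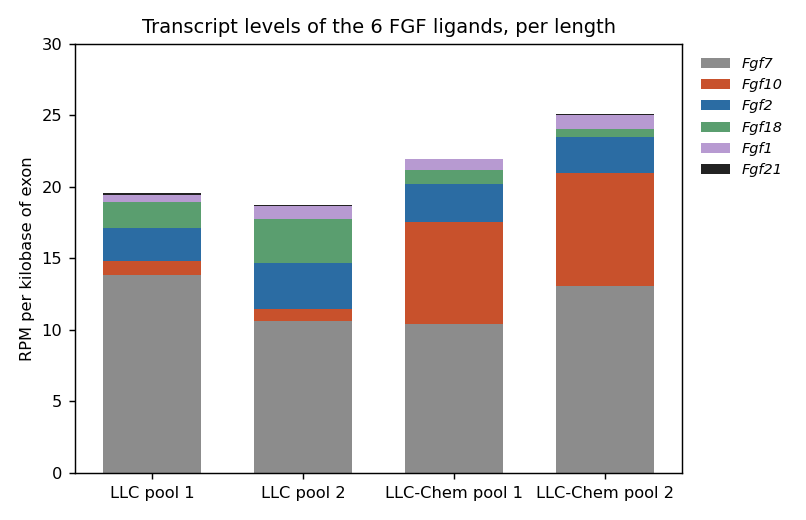
Stacked levels of the 6 FGF ligands in each pool, in RPM per kilobase of exon. The Fgf7 segment runs between 10.4 and 13.8 in all 4 pools, while the Fgf10 segment goes from 0.989 and 0.804 in LLC to 7.14 and 7.92 in LLC-Chem tumors.

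The other 12 secreted ligands of the family were all under the limit for testing. Fgf6 and Fgf20 were at 0 reads in every pool, which allows up to 0.0883 to 0.105 RPM. Fgf16 was the only one above 1 RPM in any pool, with 2.75 RPM in LLC pool 2 against 0.200 RPM in LLC pool 1 and 0.300 and 0.150 RPM in LLC-Chem, high in that pool alone. Of the 4 intracellular FGF homologous factors, which do not act through the receptors, 1 was tested. Fgf11 measured 7.70 and 8.75 RPM in LLC and 12.4 and 9.54 RPM in LLC-Chem (log2 fold change 0.39, standard error 0.19, limma adjusted p = 0.188). Its value was 0.21 without LLC-Chem pool 1.

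Among the proteins that hold or present FGFs, the receptor-like Fgfrl1, which binds FGFs but lacks a kinase domain, measured 11.6 and 10.5 RPM in LLC and 23.3 and 19.9 RPM in LLC-Chem. It rose by 0.93 on the log2 scale (standard error 0.15, limma adjusted p = 0.0188), with both LLC-Chem pools above both LLC pools. Fgfbp3, a secreted carrier of FGFs, measured 5.00 and 2.998 RPM in LLC and 2.30 and 2.20 RPM in LLC-Chem and was not called (log2 fold change -0.67, standard error 0.28, limma adjusted p = 0.127). Its value was -0.35 without LLC pool 1 and -1.0 without LLC pool 2. Klb, the co-receptor of FGF21, was under the limit for testing, with 0.05 and 0.0999 RPM in LLC and 0.400 and 0.450 RPM in LLC-Chem pools. Its pooled reads, 3 against 28, give a ratio of 8.20 with an exact 95% interval of 2.53 to 42.1 for counting error only. Kl and Fgfbp1 were near 0 in all pools.

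Most heparan sulfate proteoglycans and enzymes that build and trim their chains were not called. Of 24 listed genes 23 were tested, and by limma 2 were called higher (8.7%) and 2 lower (8.7%), beside 9.54% and 13.5% of all tested genes. The median log2 fold change was -0.05. Sdc2, which encodes syndecan-2, rose from 157.4 ± 0.317 RPM to 310.4 ± 23.2 RPM (SD, n = 2 each), by 0.98 on the log2 scale (standard error 0.10, limma adjusted p = 0.0116). Hs2st1, a 2-O-sulfotransferase whose sulfate FGF2 requires for binding, rose by 0.39 (limma adjusted p = 0.0379). Hs3st1, a 3-O-sulfotransferase, fell by 1.95 on the log2 scale (limma adjusted p = 0.028), from 4.70 and 1.95 RPM to 0.450 and 0.400 RPM, with LLC pools that lay far apart. Gpc4, a glypican, fell by 0.80 (limma adjusted p = 0.0493), a call that was lost with TMM scaling (0.0629), median-of-ratios scaling (0.0582) and edgeR (0.0625), with adjusted p from 0.0203 to 0.311 over 14 settings.

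Below the receptors, all 18 listed adaptors and kinases were tested, and by limma 4 were called higher (22.2%) and 1 lower (5.6%), beside 9.54% and 13.5% of all tested genes. Their median log2 fold change was 0.06, beside -0.04 over all tested genes. The adaptor Frs2, which docks on activated FGF receptors, rose from 40.5 ± 0.248 RPM to 55.7 ± 1.02 RPM (SD, n = 2 each), by 0.46 on the log2 scale (standard error 0.10, limma adjusted p = 0.0321). Its relative Frs3 rose by 1.05 (limma adjusted p = 0.0214) from a low level of 2.97 RPM, and 18.5% of its exon bases lie under other genes. Plcg1, which encodes phospholipase C gamma 1, rose by 0.65 (limma adjusted p = 0.0159) and the kinase gene Braf by 0.60 (limma adjusted p = 0.0346). The adaptor Grb2 fell by 0.43 (limma adjusted p = 0.0472), and this call was lost with TMM scaling (0.0601), median-of-ratios scaling (0.0543) and edgeR (0.0656), within a range of 0.0322 to 0.322 over 14 settings. The kinase gene Mapk3 was not called (log2 fold change 0.21, limma adjusted p = 0.145).

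The genes that FGF signaling is known to induce were split. Other receptor tyrosine kinases also act on them. Of 20 listed feedback targets 18 were tested, and by limma 6 were called higher (33.3%) and 5 lower (27.8%), beside 9.54% and 13.5% of all tested genes. The median log2 fold change was 0.20, beside -0.04 over all tested genes.

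Of the 6 that rose, 4 (Spry1, Spry2, Spred2 and Il17rd) encode inhibitors of the pathway. Another Sprouty gene, Spry3, was under the limit for testing and lower in both LLC-Chem pools, with 47 against 21 pooled reads (ratio 0.393, exact 95% interval 0.223 to 0.670, counting error only). Spry1, a Sprouty inhibitor of RAS-MAPK signaling, measured 5.20 and 5.10 RPM in LLC and 23.1 and 21.8 RPM in LLC-Chem. It rose by 2.02 on the log2 scale (standard error 0.15, limma adjusted p = 0.00665), and another gene overlaps 24.4% of its exon bases. Spry2 measured 39.8 and 40.9 RPM in LLC and 108.7 and 100.3 RPM in LLC-Chem, a rise of 1.36 (standard error 0.10, limma adjusted p = 0.00665). For both genes the pools of a group lay close together. Il17rd, which encodes the FGF receptor antagonist SEF, rose by 1.02 (limma adjusted p = 0.013), from 15.6 ± 0.0706 RPM to 32.3 ± 1.98 RPM (SD, n = 2 each). Spred2, a Sprouty-related inhibitor, rose by 0.45 (limma adjusted p = 0.0452), and Flrt2, a membrane protein of a family that binds FGF receptors, by 0.50 (limma adjusted p = 0.0347). The transcription factor gene Etv1 measured 37.6 and 30.1 RPM in LLC and 82.6 and 103.8 RPM in LLC-Chem, a rise of 1.45 (standard error 0.17, limma adjusted p = 0.0123).

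The 5 that fell hold another factor of the same ETS subfamily, a pair of MAPK phosphatases, which are inhibitors too, a cell cycle gene and Flrt3. Etv4 measured 73.7 and 55.9 RPM in LLC and 28.7 and 25.7 RPM in LLC-Chem, a log2 fold change of -1.22 (standard error 0.16, limma adjusted p = 0.0136). Etv5, the remaining member of that subfamily, measured 50.8 and 44.0 RPM and then 37.7 and 29.6 RPM, and was not called (log2 fold change -0.50, limma adjusted p = 0.0719). Etv1 and Etv4 thus moved in opposite directions. The phosphatase genes Dusp4 and Dusp5 fell by 1.04 and 1.41 on the log2 scale (limma adjusted p = 0.0329 and 0.0388). The LLC pools of Dusp5 lay apart, at 43.0 and 23.7 RPM, against 14.6 and 9.39 RPM in LLC-Chem, and another gene overlaps 22.1% of its exon bases. Dusp6, a phosphatase gene widely used as a readout of FGF signaling, measured 158.9 and 116.2 RPM in LLC and 128.1 and 154.0 RPM in LLC-Chem, with overlapping groups (log2 fold change 0.05, 95% interval -0.40 to 0.50, limma adjusted p = 0.858). Ccnd1, which encodes cyclin D1, fell by 1.05 (limma adjusted p = 0.015), from 180.4 ± 34.4 RPM to 86.0 ± 4.95 RPM (SD, n = 2 each), and another gene overlaps 23.4% of its exon bases. Flrt3 fell by 1.17 (limma adjusted p = 0.0447), a call that edgeR did not give (0.0578), within 0.0319 to 0.25 over 13 settings. Spry4, Spred1, Spred3, Egr1 and Fosl1 were not called by limma, with log2 fold changes from -0.06 (Spred1) to 0.67 (Spred3). Spred3 was called with DESeq2 (adjusted p = 0.0118), within 0.0118 to 0.369 over 14 settings. Egr1 was spread widely within LLC-Chem, at 16.7 and 51.5 RPM.

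**Figure D4:**
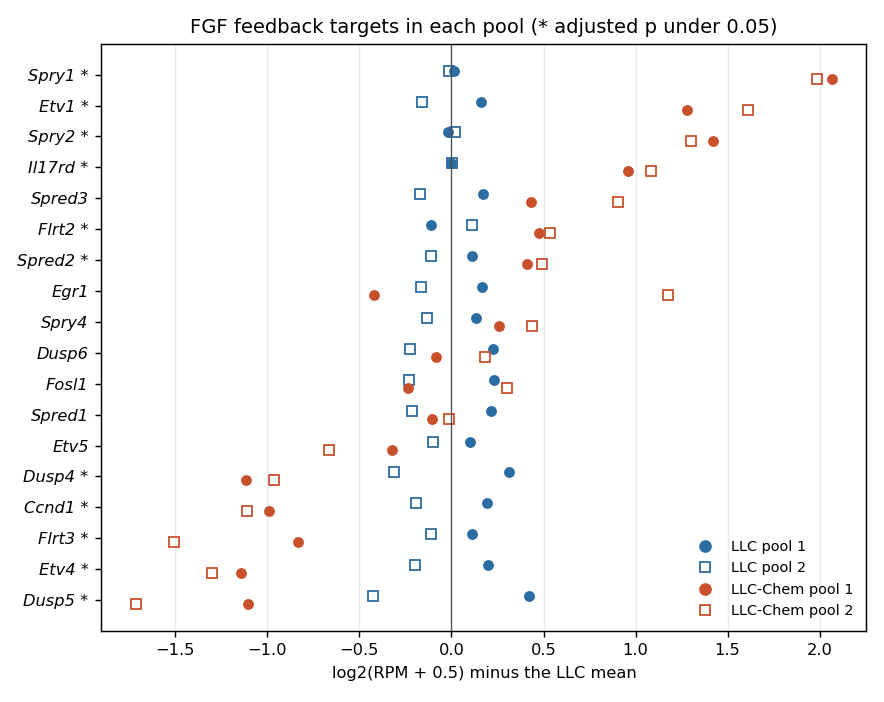
The 18 tested FGF feedback targets in each pool, as log2(RPM + 0.5) minus the mean of the LLC pools, ordered by fold change, with a star for an adjusted p under 0.05 from limma. Blue symbols are LLC pools, orange symbols LLC-Chem pools, circles pool 1 and squares pool 2, and the orange symbols run from above 1.9 for Spry1 to below -1 for Dusp5 while those of Dusp6 sit among the blue ones.

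Markers of several host cell types moved together with the groups, and their counts stand beside shares of 9.54% called higher and 13.5% called lower over all tested genes. All 7 endothelial markers were called lower by limma in LLC-Chem, with a summed level of 167.4 to 245.1 RPM in LLC and 33.9 to 58.2 RPM in LLC-Chem. Of 5 pericyte markers 4 were called lower, with sums of 124.6 to 163.2 RPM and 35.6 to 55.0 RPM. Of 8 leukocyte markers 6 were tested and 4 were called lower, with sums of 1004 to 1380 RPM and 385.8 to 713.5 RPM. Fibroblast markers did not move together, with 1 of 7 called higher (Pdgfra) and 3 lower (Col1a1, Col1a2 and Pi16), and sums of 12760 to 21830 RPM and 8042 to 10040 RPM. Their log2 fold changes were 0.72 for Pdgfra, -1.51 for Col1a1, -1.46 for Col1a2 and -1.24 for Pi16. Dpt (0.92), Lum (1.00) and Dcn (0.80) were not called (limma adjusted p from 0.062 to 0.0776). Adipocyte markers summed to 20.1 to 28.1 RPM and 14.3 to 39.9 RPM, with 1 of 3 tested called higher (Cfd). Of 4 keratinocyte markers Krt10 alone was tested and not called, with Krt5 and Krt14 at or near 0 RPM in every pool. The muscle markers Ckm and Myh4 were at 0 in all 4 pools, and none of the 4 on that list was tested. Of 5 epithelial markers, Krt8 and Krt18 were well expressed (82.8 to 167.1 RPM) and not called. Krt19 measured 5.20 and 15.3 RPM in LLC and 3.15 and 2.10 RPM in LLC-Chem (log2 fold change -1.62, limma adjusted p = 0.0663), and like Krt8 (-0.67) it was not called with both LLC-Chem pools lower. The defining epithelial genes Epcam, at most 0.200 RPM, and Cdh1, at 0.450 to 1.40 RPM, were near absent, although the line is named a carcinoma. The part of these cell types in the differences of Fgf10, Fgfr1, Fgf18 and the feedback targets was not tested.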

How the data were processed

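RNA of day 5 tumors was profiled in 4 libraries, each a pool of 3 tumors, with 2 LLC and 2 LLC-Chem pools. The authors used STAR for mapping paired-end reads on GRCm38.p4 and HTSeq for gene counts on the Ensembl annotation, and deposited RPM for 47729 genes. Tool versions and the strand setting are not given in the sources used here. The deposited RPM were whole multiples of one step in 100% of nonzero values under 5000 steps (tolerance 0.05 step). Reads were recovered from these steps to within 1 read for a given total, taking the values as rounded up after scaling to 20000000 reads, which was inferred from the values. Library totals were fitted in steps of 1000 reads.

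Under R 4.3.3, limma 3.58.1 (trended eBayes) was fitted to log2(RPM + 0.5) for the 13694 genes averaging 1 RPM or more, with Benjamini-Hochberg adjustment. A test on RPM was used because RPM are not counts. The fit was also run on simulated counts with the same dispersion for every gene, so that run cannot show how reliable the calls on these pools are. Genes named outside the family are those called with pools that do not overlap, up to 8 by lowest p in each list. Dusp5, Flrt3 and Spred2 lie beyond that limit of 8 among the feedback targets and are named in addition. Tested genes of the lists of other ligands and of binding proteins, Rarres2, the markers and the 3 genes nearest in pattern to Fgfr1 and to Fgf7 are named as well. Fgf16, Fgf17, Fgf9, Klb, Kl, Fgfbp1, Fgf6, Fgf20, Fgf11, Mapk3 and the feedback targets that were not called or not tested were named after their values were seen. The 10 genes and the lists were chosen with earlier results of these data known. Alternatives were pseudocounts of 0.1 and 1, other filters, TMM and median-of-ratios scaling, the replicate number as a block, edgeR 4.0.16 and DESeq2 1.42.0 on recovered reads, and leaving out each pool. A crossed pairing was added after the data were seen. GENCODE M21 (GRCm38), in which 47310 identifiers (99.1%) were found, gave positions and exon lengths. Figures were drawn in Python 3.11.15 with matplotlib 3.10.9.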

Additional observations from a re-analysis of the deposited data

How the results depend on the processing

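By limma 1306 genes were called higher and 1848 lower in LLC-Chem over all genes, 2 and 1 among the FGF ligands and receptors, and 6 and 5 among the feedback targets. With every gene above 0 tested, limma called 1 gene higher and 0 lower (3394 and 4003 at p under 0.05 before adjustment), with 0 and 0 among the ligands and receptors and 0 and 0 among the feedback targets. Here edgeR and DESeq2 were run with the limit of 1 RPM only. Leaving out each pool in turn left 0 to 0 calls in every one of these counts, against 998 to 2359 genes higher and 1580 to 2823 lower at an unadjusted p under 0.05, so these fits, in which the lone pool is assumed to vary like the other group, cannot show stability of a call. Over all genes the counts were 1583 and 1631 with TMM scaling, 1476 and 1687 with median-of-ratios scaling, 1551 and 1600 with edgeR and 1876 and 2271 with DESeq2, which called 7 and 5 of the feedback targets. The call of Fgf18 was also lost, leaving 0 lower, with TMM scaling, median-of-ratios scaling and edgeR, while with a mean of at least 5 RPM Fgf18 was not tested and 0 were lower. The deviations of same-numbered pools from their group means had a correlation of -0.14, with different animals in each pool, so the pools share only a number. With the replicate block limma called 549 genes higher and 1064 lower, 1 and 0 of the ligands and receptors (Fgfr1, adjusted p = 0.0884, and Fgf18, 0.0878, were lost), and 4 and 3 of the feedback targets. With the numbers crossed, chosen after the data were seen, the counts were 1579 and 2320, 2 and 1, and 7 and 5. In the other lists the replicate block also lost the limma calls of Frs2 (adjusted p = 0.0793), Braf (0.0757), Hs2st1 (0.0922), Grb2 (0.0928) and Gpc4 (0.0973). Leaving out pools turned the sign of 6 genes that were not called. Their log2 fold changes ran from -0.31 to 0.16 for Fgf2, -0.24 to 0.13 for Fgf7, -0.28 to 0.15 for Spred1, -0.18 to 0.27 for Dusp6, -0.42 to 1.18 for Egr1 and -0.24 to 0.30 for Fosl1. In none of these settings did a called gene among the 36 followed singly turn its sign, and the cause of the lost calls was not tested.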

Other observations

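The genes whose pattern over the 4 pools lay closest to Fgfr1, by the distance between log2(RPM + 0.5) values centred on each gene's own mean, were Gnb5 (distance 0.0173), Usp53 (0.0245) and Gltscr2 (0.0303), out of 11047 genes averaging 5 RPM or more. Gnb5, for example, stood at 13.3 and 13.8 RPM in LLC and at 19.7 and 20.2 RPM in LLC-Chem. Closest to Fgf7 were 4930503L19Rik (0.0347), Mettl8 (0.0466) and Pfas (0.0479). The distances are a description.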
